A study of Mus musculus with 6 samples.

Results

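The enzymes described here put double bonds into fatty acids or lengthen them: the stearoyl-CoA desaturases *Scd1*, *Scd2*, *Scd3* and *Scd4*, the fatty acid desaturases *Fads1*, *Fads2* and *Fads3*, and the elongases *Elovl1*, *Elovl5* and *Elovl6*. A probe was included when the gene name in the array files was exactly that of one of these 10 genes, out of 36163 gene names on the array. This gave 14 probes of 55681. The genes were chosen from measured values of the comparison reported below, so their differences between diets are a description and are not offered as a test of the family. Hearts came from male C57BL/6 mice that received, from 4 weeks of age and for 4 months, either a standard chow diet (normal diet, ND; 3 hearts) or a high fat diet with 60% of its calories from fat (HFD; 3 hearts). Each heart was hybridized to 1 one-color Agilent mouse array. Strain and sex follow the animal methods of the study, and the sample titles give neither and name no transgene.

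Stearoyl-CoA desaturases place the first double bond in saturated fatty acids and so make oleate and palmitoleate, the monounsaturated fatty acids of triglycerides and membranes. *Fads2* and *Fads1* act in turn on the essential polyunsaturated fatty acids, and the elongases add carbons to chains of different length and saturation. The desaturases take their electrons from cytochrome b5, and many of these genes are known targets of the lipogenic factor SREBP-1c and of the liver X receptors. In the mouse the 4 *Scd* genes lie side by side on chromosome 19, and *Scd4* is the isoform known mainly from the heart.

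The probes of the *Scd* genes are shown first because their enzymes are closely alike and the results turn on telling them apart. Each probe is a 60-base oligonucleotide placed by the array files on the mm9 genome build. The *Scd4* probe lies at chr19:44420742-44420801 on the plus strand, the *Scd1* probe at chr19:44469387-44469446 on the minus strand, the *Scd2* probe at chr19:44381024-44381083 and the *Scd3* probe that was tested at chr19:44318249-44318308. Their first 30 bases, 5′ to 3′, were as follows.
Scd4 probe A_55_P2011872: tctgagaacacattgtgctgtgggggctcc
Scd1 probe A_52_P682382: actcctgggctaagtatctgacagtctcac
Scd2 probe A_51_P129464: acatttggggatcctctgcagaggagtatt
Scd3 probe A_55_P2052759: ataaagtcaaccataggtcaagaggcagag
The longest run of bases common to any pair of *Scd* probes of different genes was 8 of 60. Probes were compared with each other and not with the transcripts of the other genes. This run therefore cannot show whether a probe also matches another *Scd* transcript. The array files listed RefSeq transcripts of 1 gene for each of these probes. A further *Scd3* probe, A_55_P2099594 at chr19:44289995-44290054, was listed for transcripts of both *Scd3* and *Scd1* and cannot tell them apart; it is shown whole for that reason.
Scd3 probe A_55_P2099594: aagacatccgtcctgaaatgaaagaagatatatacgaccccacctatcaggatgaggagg
Whether a probe lies in coding sequence or in an untranslated region was not determined here, since no mm9 annotation was used.

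Levels are given as log2 of the probe's intensity relative to the 75th percentile of its array, so that 0 is the level of the array's 75th percentile. They compare hearts for 1 probe and do not rank probes or genes. A probe was tested when it was well above background, by the scanner software, on every array of at least 1 diet. Of the 14 probes 11 were tested, and all 11 were well above background on all 6 arrays. The *Scd3* probe shared with *Scd1* and *Fads2* probe A_66_P130115 stayed below that call in every heart. The remaining *Scd3* probe, A_51_P446045, cleared it only in heart ND 2. Their intensities ran from 6.08 to 24.8, and no fold is given for them.

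All 6 arrays were on 1 slide and in 1 scan, with HFD 1 and HFD 2 in 1 row of the slide and the other hearts in the other row. The share of probes that cleared the background call was 49.2% to 53.0%, and the 75th percentile of intensity was between 453 and 544. The 7 cardiomyocyte markers were bright in every heart and none differed between diets at an unadjusted p below 0.05. The atrial muscle markers spread widely among hearts: their summed level, in units of the array's 75th percentile, was 198 to 981 in ND and 56.2 to 1149 in HFD, with the lowest value in HFD 2. In whole tissue, fewer cells of a type and less RNA per cell cannot be told apart.

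*Scd4* was the member with the largest difference. Its intensity was 199, 321 and 279 in the ND hearts and 780, 773 and 1042 in the HFD hearts. As log2 levels this was -1.30, -0.59 and -0.77 for ND against 0.60, 0.77 and 0.94 for HFD. Every HFD heart was above every ND heart, and the spread among ND hearts (SD 0.37, n = 3) was larger than that among HFD hearts (SD 0.17, n = 3). The log2 fold change was 1.66 (SE 0.20, 95% interval 1.17 to 2.14), a 3.15-fold higher mean level in HFD. With limma's moderated test over 27590 probes the adjusted p was 0.0887, which did not pass the threshold of 0.05, as 0.0145% of all probes did. Its adjusted p was 0.0271 when the background was corrected by normexp and 0.0285 when limma's variances were robust and followed intensity, and between 0.0853 and 0.373 in the other settings tried. With the slide row as a term, or within the row that held both diets, the log2 fold change was 1.82, and both values rest on HFD 3 alone against the ND hearts.

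**Figure D1:**
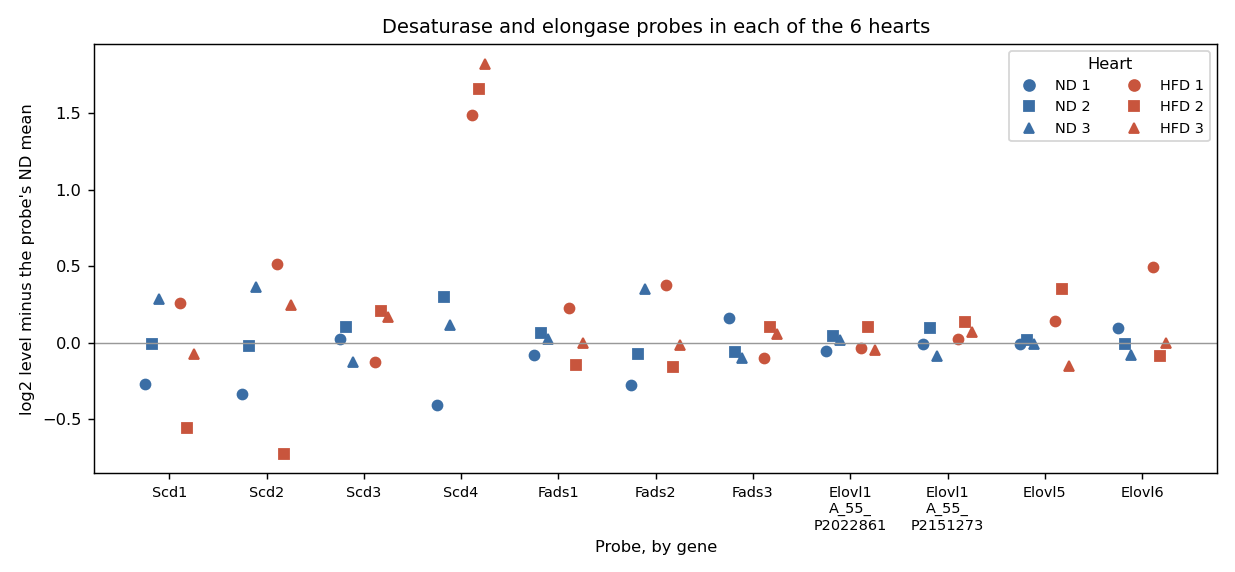
Log2 level of each tested probe in each heart, with the probe's ND mean subtracted (vertical axis), by gene (horizontal axis); blue symbols are ND hearts and red symbols HFD hearts, with the shape giving the heart. The HFD hearts stand apart from the ND hearts for Scd4 alone, and HFD 2 is the lowest heart for Scd1 and Scd2.

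For the other 3 stearoyl-CoA desaturases the HFD and ND hearts overlapped. For *Scd1*, the isoform of liver and fat, the ND hearts had log2 levels of -0.43, -0.17 and 0.13 and the HFD hearts 0.11, -0.72 and -0.23. HFD 2 was the lowest of the 6 hearts and HFD 1 the second highest. Its log2 fold change was -0.12 with a 95% interval of -0.71 to 0.47. For *Scd2*, the isoform best known from brain, the ND hearts had log2 levels of 1.16, 1.47 and 1.86 and the HFD hearts 2.01, 0.77 and 1.75. The groups overlapped widely, with the highest and the lowest heart both in HFD. The log2 fold change was 0.01 with an interval of -0.85 to 0.88, which leaves room for differences of either sign approaching 1 on that scale. *Scd3*, known from skin, had log2 levels from -2.49 to -2.26 in ND and from -2.49 to -2.16 in HFD, and a log2 fold change of 0.08 (interval -0.21 to 0.37).

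*Scd1* and *Scd2* varied among hearts of 1 diet more than between diets. Both were lowest in HFD 2, as were some of the marker lists, while *Scd1* was highest in ND 3 and *Scd2* in HFD 1. Other lists differed: the cardiomyocyte list had its highest mean log2 level in HFD 2 (8.36), and the red blood cell list its lowest in HFD 3 (2.41). Ordered from low to high, the hearts for *Scd2* were HFD 2, ND 1, ND 2, HFD 3, ND 3 and HFD 1. The mean log2 level of the 4 atrial muscle markers tested gave the same order, from 1.22 in HFD 2 to 7.88 in HFD 1. The 6 white adipocyte markers tested had their lowest mean log2 level in HFD 2 (-3.97) and their highest in HFD 1 (0.11), with the other 4 hearts between -1.59 and -0.55. Their summed level was 3.72 to 8.35 in ND and 0.453 to 10.1 in HFD. All 6 cleared the background call in every ND heart, and leptin, also on that list, cleared it in no heart. The 5 Schwann cell and myelin markers tested had their lowest mean log2 level in HFD 2 (-1.75), followed by ND 1, ND 2, ND 3 and HFD 3, and their highest in HFD 1 (-0.79). Their summed level was 2.17 to 2.97 in ND and 1.96 to 3.78 in HFD. The part of atrial muscle, fat or nerve in the *Scd1* and *Scd2* levels was not tested. Without HFD 2 the log2 fold change was 0.09 for *Scd1* and 0.38 for *Scd2*, and without HFD 1 it was -0.32 and -0.24, so that its sign changed with the heart left out.

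*Scd4* did not follow that order. HFD 2, at the bottom of the atrial and adipocyte lists, had a *Scd4* level of 0.77, between the other HFD hearts, and HFD 1, at their top, had the lowest of the HFD levels at 0.60. Without HFD 2 the *Scd4* log2 fold change was 1.65. Of the 5 red blood cell markers tested, 4 were lower in HFD at an unadjusted limma p below 0.05, against 6.63% of all probes. The summed level of the red blood cell markers was 577 to 737 in ND and 367 to 514 in HFD. Their part in the *Scd4* difference was not tested.

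**Figure D2:**
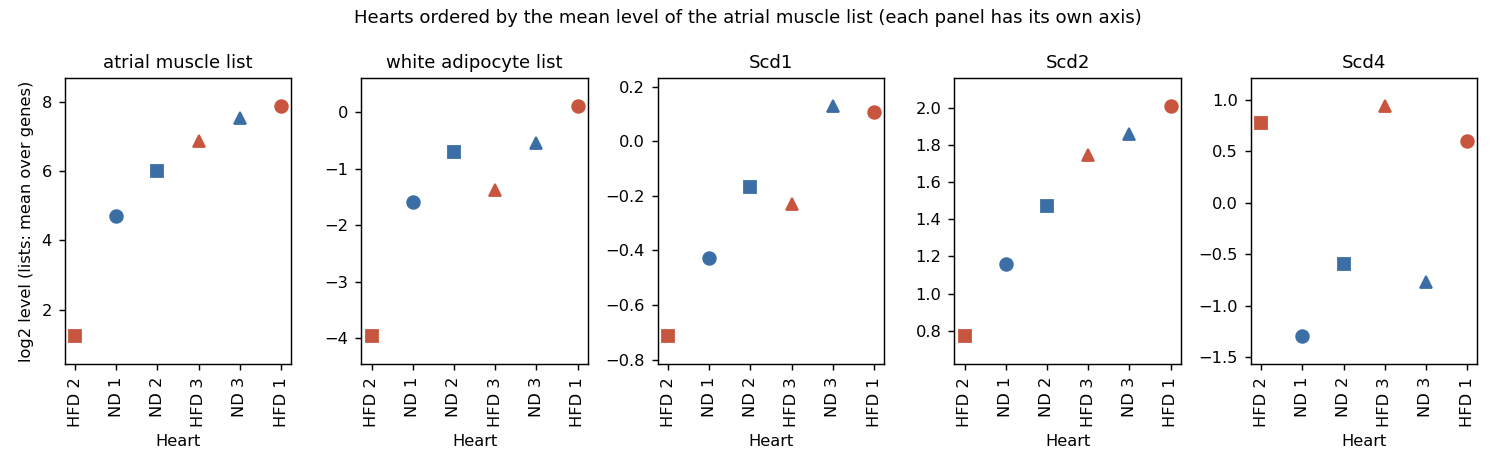
Log2 level per heart (vertical axis, own scale in each panel) of the atrial muscle list and the white adipocyte list, each as the mean over its tested genes, and of the Scd1, Scd2 and Scd4 probes, with hearts on the horizontal axis in the order of the atrial list (blue ND, red HFD). Scd2 rises in the same order as the atrial list, from HFD 2 to HFD 1, while for Scd4 the 3 HFD hearts lie above the 3 ND hearts wherever they stand in that order.

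For the *Fads* genes, too, the hearts of the diets overlapped. *Fads1*, the last desaturase on the way to arachidonic acid, had log2 levels of -0.07, 0.07 and 0.04 in ND and 0.24, -0.13 and 0.01 in HFD. The HFD hearts held both the highest and the lowest level, and the log2 fold change was 0.02 (interval -0.25 to 0.30). *Fads2*, which takes the first step on the same route, had 1 probe tested (A_65_P20641). That probe is annotated to an Ensembl transcript with no RefSeq gene listed, and A_66_P130115, listed for RefSeq *Fads2*, was not tested. The readings below are for A_65_P20641. In the ND hearts this probe read -3.64, -3.43 and -3.01 on the log2 scale, and in the HFD hearts -2.98, -3.52 and -3.38. The log2 fold change was 0.06 (interval -0.44 to 0.57). *Fads3*, which acts on sphingoid bases, had log2 levels from 3.48 to 3.74 in ND and from 3.48 to 3.67 in HFD, and a log2 fold change of 0.02 (interval -0.23 to 0.27).

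None of the elongase probes separated the diets. *Elovl1*, which lengthens saturated very long chains for sphingolipids, had a pair of probes. Probe A_55_P2022861 had log2 levels of 0.50 to 0.59 in ND and 0.51 to 0.65 in HFD, with a log2 fold change of 0.01 (interval -0.18 to 0.19). Probe A_55_P2151273 ran from 3.82 to 4.01 in ND and from 3.93 to 4.04 in HFD, with a log2 fold change of 0.07 (interval -0.12 to 0.26). Both *Elovl1* probes thus had overlapping groups and intervals that include 0.

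*Elovl5*, which lengthens polyunsaturated fatty acids, was nearly level in the ND hearts, at 1.96, 1.99 and 1.97. In HFD it was 2.12, 2.33 and 1.82, so that the HFD hearts lay on both sides of the ND hearts. The log2 fold change was 0.11 (interval -0.21 to 0.44). It was 0.25 without HFD 3, with an unadjusted limma p of 0.0496. With the slide row as a term it was -0.15, a value that rests on HFD 3 alone against the ND hearts. *Elovl6*, which extends palmitate, was -2.43, -2.53 and -2.60 in ND and -2.03, -2.61 and -2.52 in HFD. HFD 1 stood above the other 5 hearts, and the log2 fold change of 0.13 (interval -0.27 to 0.54) became -0.05 without it.

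Over the 11 tested probes, 10 log2 fold changes were positive and 1 was negative, and apart from *Scd4* they lay between -0.12 and 0.13. At an unadjusted p below 0.05, 1 member probe was higher in HFD, against 5.24% of all probes tested. No member probe was lower in limma's test (0 of 11), against 6.63% of all probes. None was past the adjusted threshold. The HFD hearts were all above the ND hearts for 1 member probe, *Scd4*, against 7.92% of all probes. With 1 probe per gene the median log2 fold change of the 10 genes was 0.07, beside -0.01 for all probes tested. HFD 2 was the lowest of the 6 hearts for 4 member probes and the highest for another 4, and over all probes it was lowest for 14.1% and highest for 27.3%.

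**Figure D3:**
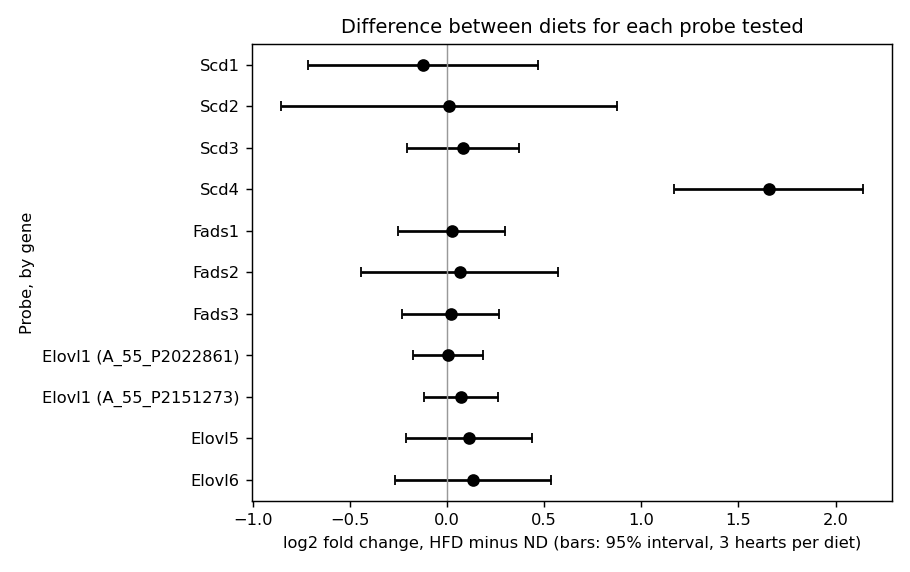
Log2 fold change, HFD minus ND, of the 11 tested probes (horizontal axis; points with 95% intervals from limma, 3 hearts per diet), by gene (vertical axis). The Scd4 interval, 1.17 to 2.14, lies above 0, and the other 10 intervals include 0, with Scd2 the widest.

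The *Scd* genes lie in a row, so the probes around them were set beside the *Scd4* value. From the first to the last *Scd* probe the distance was 179 kb, in the order *Scd3*, *Scd2*, *Scd4*, *Scd1*. The *Scd2* probe lay 39.72 kb on one side of the *Scd4* probe and the *Scd1* probe 48.64 kb on the other. Within 250 kb of the outer *Scd* probes, 34 probes were placed and 19 were tested, of which 7 were for other named genes and 8 for non-coding intervals. *Sec31b*, which codes for a coat protein of transport vesicles, lay 171 kb away and had a log2 fold change of 0.30. Its limma p was 0.0141 unadjusted and 0.305 adjusted, and 5.24% of all probes were higher at an unadjusted p below 0.05. The HFD hearts were all above the ND hearts for *Sec31b*, as for 7.92% of all probes tested. *Erlin1*, *Chuk*, *Cwf19l1*, *Bloc1s2*, *Ndufb8* and *Hif1an* had log2 fold changes from -0.08 to 0.19. Probe A_30_P01019993 of a non-coding interval, singled out after its values were seen, lay 230.6 kb from the *Scd4* probe. It was well above background in all 3 HFD hearts and in no ND heart. Its log2 levels in HFD 1, HFD 2 and HFD 3 were -2.44, -4.07 and -4.17, so that HFD 1 raised the HFD mean. Probes A_30_P01032552 and A_30_P01020591 of the same interval were well above background in no heart and were not tested. The difference thus rests on A_30_P01019993 alone among the probes of that interval. The level of A_30_P01019993 was at least 2.24-fold higher in HFD. Because this probe entered the limma fit through the HFD hearts alone, its p is not used and the fold is a description. This bound sets the mean HFD level against the faintest signal called well above background on each ND array.

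**Figure D4:**
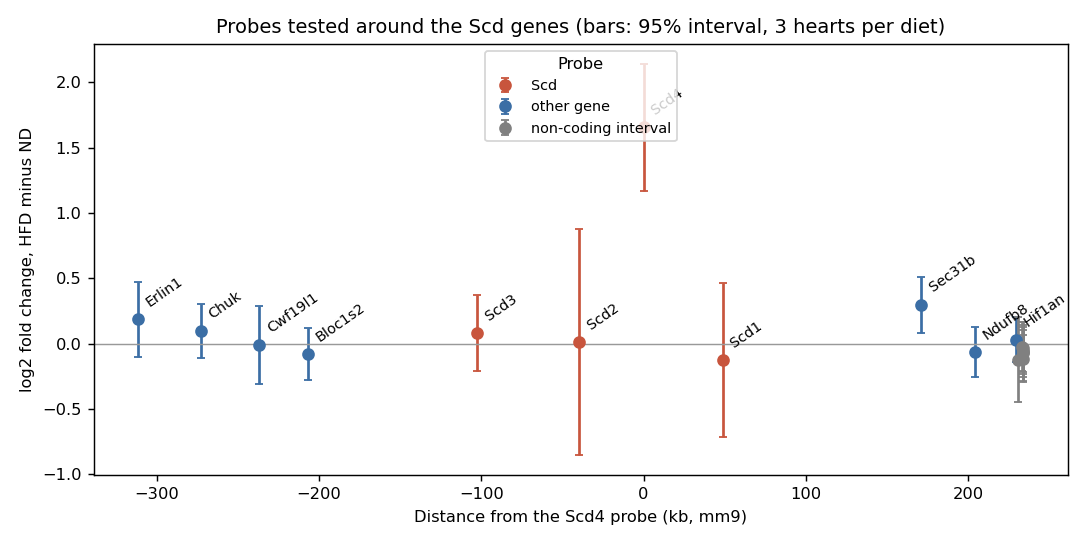
Log2 fold change, HFD minus ND (vertical axis; bars are 95% intervals, 3 hearts per diet), of the tested probes around the Scd genes against distance from the Scd4 probe in kb (horizontal axis); red marks Scd probes, blue other named genes and gray non-coding intervals. Scd4 stands at 1.66 between Scd2 and Scd1, which are near 0, and the non-coding probe not above background in ND is left out.

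Among the 3 genes with the pattern most like that of *Scd4* over the 6 hearts, by Pearson correlation of log2 levels, were *Acot3* (r = 0.991) and *Rhbdl3* (r = 0.986). All 6 points share the diet groups, so that a gene with a difference between diets scores high. *Acot3*, a peroxisomal acyl-CoA thioesterase, had log2 levels of -1.97, -1.56 and -1.59 in ND and -0.90, -0.82 and -0.88 in HFD. *Rhbdl3*, a rhomboid-like membrane protein, was 0.25, 0.32 and 0.35 in ND and 0.64, 0.72 and 0.73 in HFD. These levels describe genes that were picked for their likeness to *Scd4*.

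The table of RefSeq promoters used here, on build GRCm38.p6, gave 8 entries for 7 of the 10 genes, which were all but *Scd1*, *Scd2* and *Fads1*. The 250 bases before the transcription start of *Scd4* and *Scd3* are shown because these genes of 1 cluster had unlike values above. Capitals mark the motif TTTAAA. It resembles the TATA box and reads the same on both strands.
Scd4, chr19:44333076-44333325, plus strand: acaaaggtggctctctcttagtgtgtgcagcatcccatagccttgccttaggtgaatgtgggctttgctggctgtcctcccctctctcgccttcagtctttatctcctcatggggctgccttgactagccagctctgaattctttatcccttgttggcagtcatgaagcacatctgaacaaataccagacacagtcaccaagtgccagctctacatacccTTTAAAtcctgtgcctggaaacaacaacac
Scd3, chr19:44203038-44203287, plus strand: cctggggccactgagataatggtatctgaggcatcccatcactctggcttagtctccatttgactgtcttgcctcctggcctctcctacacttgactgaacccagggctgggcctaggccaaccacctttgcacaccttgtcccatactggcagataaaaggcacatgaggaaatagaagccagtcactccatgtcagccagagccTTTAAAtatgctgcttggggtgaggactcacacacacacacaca
The motif began 30 bases before the start of *Scd4* and 44 bases before that of *Scd3*, and these were the 2 of 8 member entries that held it, against 12.1% of 32851 promoters. CCAAT, searched on both strands like the next motif, was in 3 of the 8 entries, those of *Elovl1*, *Elovl5* and *Fads3*, against 33.8% of all promoters. TCACNCCAC, a sterol-response-like motif, was in 0 of the 8 entries and in 1.05% of all promoters. A match is a description of these letters only.

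Partners of the pathway were taken from 5 lists of 36 genes, with 1 probe per gene, and 31 were tested. At an unadjusted limma p below 0.05, 3 were higher in HFD and 3 were lower. Of all probes tested, 5.24% were higher and 6.63% lower at that limit. No partner passed the adjusted threshold, and the median log2 fold change of the partners was 0.00. Without HFD 2 only *Lpcat3* was higher (1 gene), and without HFD 1 the number lower was 5, with *Acss2* and *Hsd17b12* added. *Lpcat3*, which puts polyunsaturated chains into phospholipids, had log2 levels of 2.33, 2.39 and 2.41 in ND and 2.81, 2.90 and 3.02 in HFD. Its log2 fold change was 0.53 (SE 0.08) with an adjusted p of 0.128. The HFD hearts were all above the ND hearts, as for 7.92% of all probes tested.

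Malic enzyme *Me1*, a source of NADPH for fatty acid synthesis, had log2 levels of 5.20, 5.13 and 4.95 in ND and 5.31, 5.61 and 5.39 in HFD. *Me1* thus had a log2 fold change of 0.34 (SE 0.11). *Cyb5b*, the cytochrome b5 of the outer mitochondrial membrane, differed by 0.19 (SE 0.07). *Cyb5a* (*Cyb5* on the array), the microsomal electron carrier of the desaturases, was 5.60, 5.49 and 5.48 in ND and 5.17, 5.21 and 5.22 in HFD. This gave a log2 fold change of -0.32 (SE 0.07). The diets did not overlap for either form of cytochrome b5. The HFD hearts were all above the ND hearts for 7.92% of all probes tested, and the share with all HFD hearts below was not counted. *Cyb5a* stayed below an unadjusted p of 0.05 in all 18 other settings, and *Cyb5b* did not in 10 of them, among them each setting that left out 1 heart. *Me1* did not in 4.

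*Thrsp*, a lipogenic protein of the nucleus, was 4.37, 4.41 and 4.00 in ND and 3.62, 3.77 and 3.41 in HFD. The log2 fold change was -0.66 (SE 0.15). *Mlxipl*, which codes for the carbohydrate-response factor ChREBP, had a log2 fold change of -0.40 (SE 0.15), with its lowest level, 2.63, in HFD 1. Both were lower in every HFD heart than in any ND heart, and the share of all probes that were so was not counted. *Thrsp* and *Lpcat3* passed that limit in all 18 other settings, and *Mlxipl* did not in 9 of them. The lipogenic regulator *Srebf1* had a log2 fold change of 0.15 (SE 0.14), fatty acid synthase *Fasn* 0.20 (SE 0.11), and the acetyl-CoA carboxylases *Acaca* and *Acacb* 0.00 (SE 0.08) and 0.08 (SE 0.11), and for all 4 the diets overlapped.

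By list, 1 of 6 tested genes of substrate supply was higher (*Me1*) and 0 were lower in limma's test at an unadjusted p below 0.05. Of the elongation cycle 0 of 6 tested genes passed in either direction, with a median log2 fold change of -0.09. The electron supply list had 1 of 6 higher and 1 lower, and the regulators 0 of 8 higher and 1 lower. The other SREBP-1c or liver X receptor targets had 1 of 5 higher and 1 lower. Among all probes tested, 5.24% were higher and 6.63% lower at that limit. The elongases *Elovl2* and *Elovl3* cleared the background call in no heart, *Elovl4* in 1, *Fads6* in 3 and *Elovl7* in 4, and these 5 genes were not tested.

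**Figure D5:**
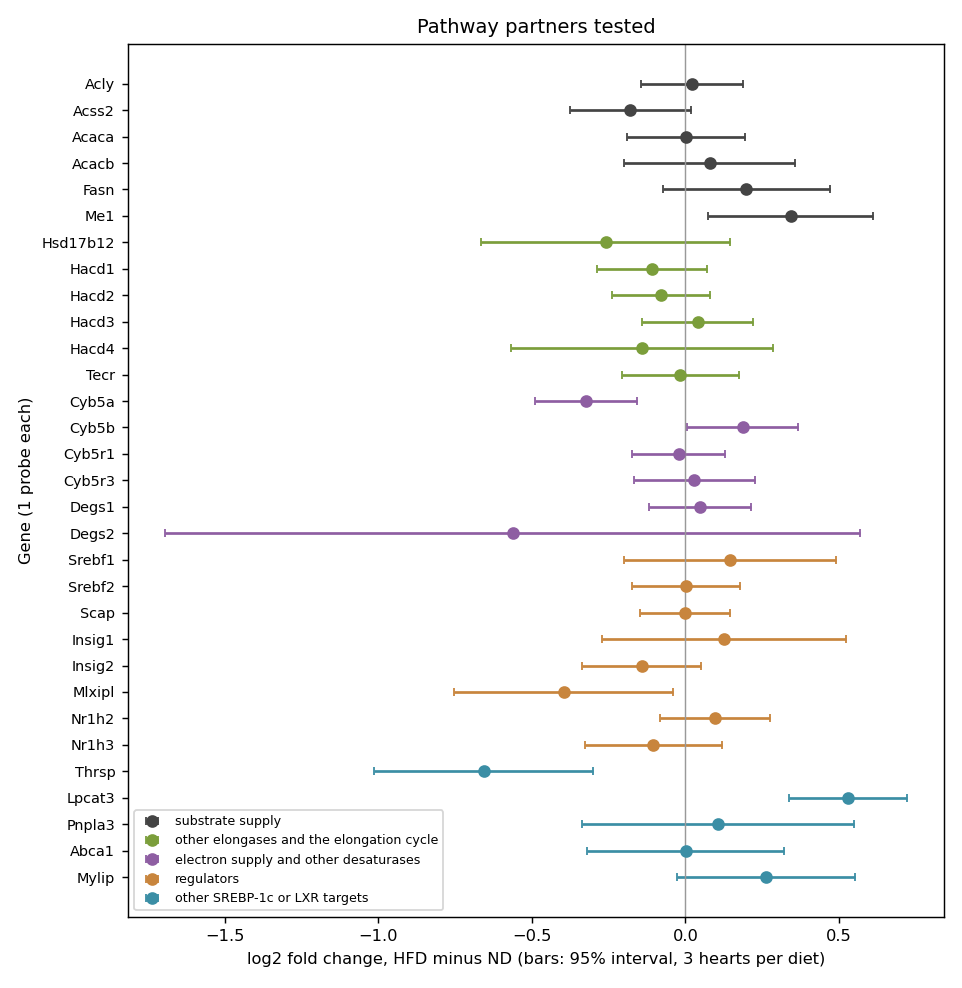
Log2 fold change, HFD minus ND (horizontal axis; points with 95% intervals, 3 hearts per diet), of the 31 tested partner genes, colored by list (vertical axis). The intervals of Me1, Cyb5b and Lpcat3 lie above 0 and those of Cyb5a, Mlxipl and Thrsp below it.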

How the data were processed

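Total RNA of 6 mouse hearts was labeled with Cy3 and hybridized to Agilent design 028005, 1 array per heart. The authors deposited the scanner output of Agilent Feature Extraction (version 10.7 in the submitters' processing notes, 10.7.1.1 in the file headers), whose intensity is background-subtracted by that software, with flags for each spot. They also deposited a table of log2 values, which were quantile normalized and whose columns matched the scanner files of their own samples. Here the log2 intensity less the array's 75th percentile was used. Outlier spots were left out, and spots of 1 probe were averaged. Probes that the software called well above background in all hearts of 1 diet or both, with at least 2 values per diet, were tested with limma 3.58.1 in R 4.3.3 (lmFit and eBayes, two-sided, Benjamini-Hochberg adjustment over 27590 probes).

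The code was tested on simulated data for 3 hearts against 3 over 27551 probes, with 100 changes planted at each of 2 sizes. Of changes of 1 on the log2 scale 61.0% were recovered, and of changes of 2, 89.0%. A further 8 unchanged probes were called. In the measured data 4 probes passed the adjustment, so these rates need not hold there. The number of arrays limits the precision. The limma p-values set the difference between diets against the spread between these hearts, with each probe's variance drawn toward that of all probes tested. The members and the gene lists were chosen with earlier results of these data known. All probes of the members were named, and of the partners those at an unadjusted p below 0.05, at most 10, with *Srebf1*, *Fasn*, *Acaca* and *Acacb*. For a gene with several probes the brightest tested was used in the lists. Lists of markers were made for white and brown adipocytes, Schwann cells, cardiomyocytes, atrial muscle, red blood cells and macrophages. No test of a gene list was run. Other settings were another normalization, background, filter or variance model, the slide row, a replicate block, the deposited table, the methods' t-test and leaving out each heart. Of the 3 genes most like *Scd4*, 1 is not reported here. Sequences came from the array files and from RefSeq promoters of GRCm38.p6. Motifs were searched in the 250 bases before each start.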

Additional observations from a re-analysis of the deposited data

How the results depend on the processing

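In all, 18 alternatives were run. The *Scd4* log2 fold change lay between 1.45 and 1.80, with unadjusted p between 1.95e-05 and 0.00209, apart from the slide row settings. Those gave 1.82, with unadjusted p up to 0.00669, and rest on 1 HFD heart, HFD 3. It passed the adjusted threshold in 2 settings, with a log2 fold change of 1.46 when the background was corrected by normexp and 1.66 when limma's variances were robust and followed intensity, and the number of member probes past the adjustment was then 1. The cause was not tested. Of 180 values of the other 10 tested probes, 178 moved by less than the spread between hearts. The exceptions were *Elovl5* with the slide row as a term and within the row that held both diets (-0.15 in each, again from HFD 3 alone). Much of that count was fixed in advance. Leaving out 1 of 3 hearts cannot move a fold change by this spread, and several settings changed the filter or the test and left the estimate as it was. The count is therefore no measure of stability. Leaving out each heart gave 1 to 2 member probes higher at an unadjusted p below 0.05, with *Elovl5* added without HFD 3, and 0 lower. It gave 1 to 3 partner genes higher and 2 to 5 lower. The methods' t-test on the same values put 1 member probe, *Scd4*, below an unadjusted p of 0.05 and 0 past the Benjamini-Hochberg adjustment. The main fit did not pair hearts by replicate number. Same-numbered hearts had deviation correlations of -0.154, 0.147 and 0.190, and differently numbered hearts ran from -0.302 to 0.190. With 3 hearts per diet these values cannot decide whether the numbers mark pairs. With the replicate block the *Scd4* adjusted p was 0.208 with a log2 fold change of 1.66, and 0 probes of the array passed against 4 without it. Signal over background limits the 3 untested member probes, whose levels are not known. A difference in *Scd1* or *Scd2* smaller than their intervals could not be seen with 3 hearts per diet.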

Other observations

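The other marker lists gave these values. Of 4 macrophage markers and 5 Schwann cell and myelin markers tested, 0 passed an unadjusted limma p below 0.05 in either direction, with median log2 fold changes of -0.08 and 0.21. Of the brown adipocyte pair, *Cidea*, a lipid droplet protein, had log2 levels of 5.54, 5.51 and 5.41 in ND and 5.67, 5.94 and 5.83 in HFD. Its limma p was 0.0123 unadjusted and 0.289 adjusted, and 5.24% of all probes were higher at an unadjusted p below 0.05. *Ucp1* was well above background on 1 array and was not tested.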
